A study of Rattus norvegicus with 12 samples.

Results

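The comparison described here is rt-PA+Acu vs rt-PA, the cortex of rats given acupuncture and a delayed thrombolytic against the cortex of rats given the thrombolytic alone. Its members were chosen by their deposited labels, 3 rt-PA+Acu and 3 rt-PA libraries, which are 6 of the 12 samples of the series. The question is how the cortical transcriptome differs when acupuncture precedes delayed thrombolysis. All animals were adult male Sprague Dawley rats. In rt-PA rats a clot was injected towards the middle cerebral artery to give an embolic stroke, and they received rt-PA (recombinant tissue plasminogen activator) by tail vein 6 h later. rt-PA+Acu rats had the same stroke and the same rt-PA at 6 h, and acupuncture at 2 h by the Xingnao Kaiqiao method, at the points Shuigou and Neiguan. Surgery with no clot gave the Sham rats, and Model rats had the stroke without treatment. Sham and Model values are given as context, and the difference between them enters only the mirror contrast described last. No group received acupuncture without rt-PA or a sham needling, so the needling itself and the handling that goes with it cannot be told apart. The time of tissue collection for sequencing is not given in the sources used here. Each labelled sample is taken as 1 animal, and p-values measure the spread between these samples.

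Vessel occlusion starves the cortex of oxygen, and the injured tissue answers with immediate early transcription factors, heat shock and antioxidant genes, chemokines and cytokines. Endothelial cells then display selectins and other adhesion molecules that let leukocytes enter, and astrocytes and microglia lose part of their resting programme. Tissue plasminogen activator turns plasminogen into plasmin, which dissolves fibrin and also cuts matrix proteins.

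Total counts were 13387413, 13538555 and 13006768 in rt-PA replicates 1, 2 and 3 and 12497519, 12093250 and 12785267 in rt-PA+Acu replicates 1, 2 and 3. Levels are given below as CPM, the count scaled to TMM-corrected library size, always in the order of replicates 1, 2 and 3. A gene was called when its adjusted p was under 0.05 and its absolute log2 fold change over 1. One library stood apart before any result is given. Over the 500 most variable genes, the first principal component held 84.7% of the variance of the 6 libraries, with the rt-PA libraries at -40.7, -30.3 and -31.0 and the rt-PA+Acu libraries at 41.7, 40.6 and 19.8. rt-PA+Acu replicate 3 lay on the side of its group but nearer to rt-PA than replicates 1 and 2, and counts are therefore also given without it. A marker of the labelled tissue was present in all 6 libraries. The vesicular glutamate transporter Slc17a7, which marks excitatory cortical neurons, stood at 525, 702 and 698 CPM in rt-PA and 1454, 1878 and 950.2 in rt-PA+Acu.

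Genes of cytokines, adhesion, matrix proteases, immediate early factors, neutrophils and macrophages were mostly below their rt-PA levels in rt-PA+Acu, by medians over 1 on the log2 scale. Chemokine genes had a median of -3.56, but it was 0.21 over the 8 of them with at least 10 counts in every library. Homeostatic astrocyte, clock, receptor and channel genes were mostly higher, by smaller amounts. Of 12999 genes tested, 932 were called higher in rt-PA+Acu (7.17% of the genes tested) and 1061 lower (8.16%). Counts of called list members near these shares are no result about a list. The groups did not overlap, 3 libraries against 3, at 6648 genes, 51.1% of those tested. The median log2 fold change over all genes tested was -0.0027. On the fitted scale 391 genes fell and 173 rose by more than 4-fold, and 79 fell and 14 rose by more than 16-fold. Of the genes tested, 37 had 3 or fewer counts in every rt-PA+Acu library and 14 in every rt-PA library. Fitted sizes of such genes are no bound, so the reach of falls and rises is not compared. With at least 10 counts in every library, 832 genes were called higher and 825 lower. Without rt-PA+Acu replicate 3 the calls numbered 2510, with 1150 higher and 1360 lower, and 1880 of the 1993 genes called with it were among them. The plot of all genes shows these changes against the level of each gene.

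**Figure D1:**
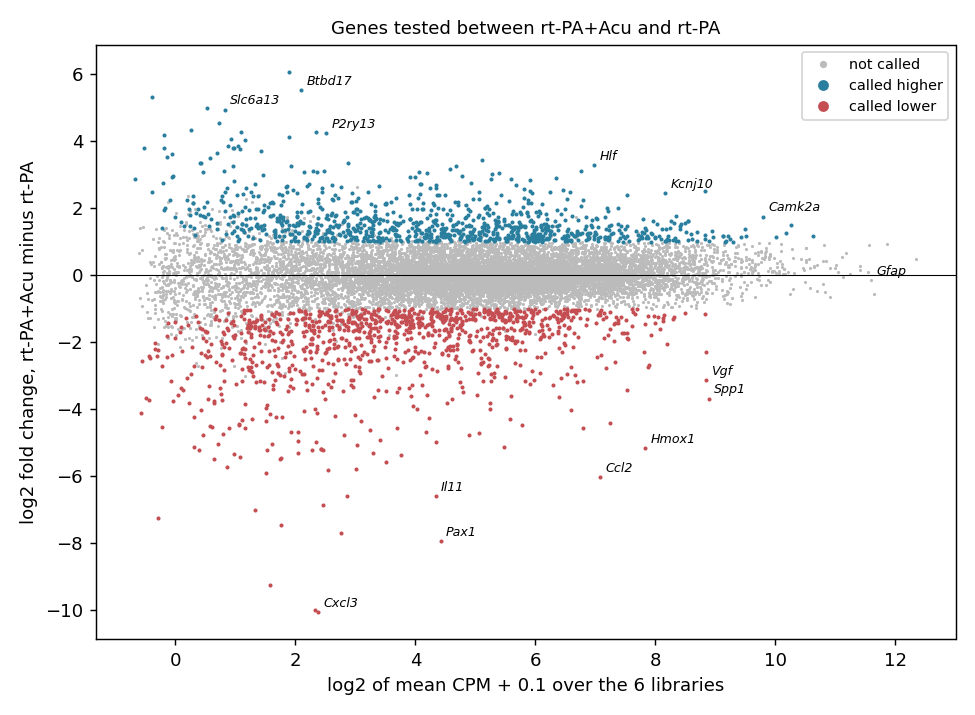
Log2 fold change between rt-PA+Acu and rt-PA (vertical axis) against the log2 of the mean CPM plus 0.1 over the 6 libraries (horizontal axis), 1 point per gene tested. Blue points are the 932 genes called higher and red points the 1061 called lower. Genes with few or no counts in a group are placed by fitted values, which are no bound. The reach of falls and rises is therefore not compared.

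Chemokines had the lowest median of the pathway lists with the filter used here, which keeps genes abundant in 1 group alone. These small secreted proteins draw leukocytes along their gradient, and 13 of the 20 chemokine and receptor genes tested were called lower and 0 higher, with a median log2 fold change of -3.56. A filter of at least 10 counts in every library, which drops genes that fell to low counts, left 8 of them, 2 called lower, with a median of 0.21, so the direction of the median depended on the filter. Ccl2, which attracts monocytes, stood at 387, 261 and 150.0 CPM in rt-PA and at 0.0843, 1.05 and 10.6 CPM in rt-PA+Acu. Every rt-PA+Acu library lay below every rt-PA library, and replicate 3 was the highest of its group, and the log2 fold change was -6.03 ± 1.01 (SE, adjusted p = 0.0053). The neutrophil attractant Cxcl2 stood at 14.4, 20.6 and 7.52 CPM in rt-PA and 0.0843, 0.262 and 0.0746 in rt-PA+Acu, at least 57.7-fold lower when 3 counts per library are taken as the floor. Its relative Cxcl3 had 15.7, 12.3 and 2.655 CPM in rt-PA and 0 in each rt-PA+Acu library, at least 41.5-fold lower. Cxcl3 had no count in the Sham libraries either. Not all members went down. Cx3cl1, the neuronal ligand of the microglial fractalkine receptor, had 196, 212 and 200.3 CPM in rt-PA and 431, 427 and 269 in rt-PA+Acu, a log2 difference of 0.89 that is under the fold threshold. It passed, at 1.09, without rt-PA+Acu replicate 3, and Cxcl14 was called higher without rt-PA replicate 3 or rt-PA+Acu replicate 2.

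Among interleukins, TNF family members and their receptors, 20 of 30 genes tested were called lower and 1 higher, with a median of -1.30. Il11, a cytokine of the interleukin 6 family, stood at 55.2, 42.5 and 21.8 CPM in rt-PA and 0, 0 and 1.12 in rt-PA+Acu. This was a change of -6.59 ± 0.83 (SE, adjusted p = 0.0021) on the log2 scale, and the groups did not overlap. The fitted size rests on the counts of replicate 3, as both other rt-PA+Acu libraries were at 0; without replicate 3 it was -12.02, which is no bound. Il6 itself had 19.8, 19.3 and 8.998 CPM in rt-PA and 0.253, 0.349 and 1.64 in rt-PA+Acu. Il1rn, the natural antagonist of the interleukin 1 receptor, fell as well, from 45.2, 44.7 and 13.9 to 0.927, 0.785 and 2.24 CPM. The single call upward was Il16, at 3.26, 1.87 and 2.21 CPM in rt-PA and 3.54, 8.901 and 7.84 in rt-PA+Acu. That call was lost with the replicate block and without rt-PA replicate 2, rt-PA replicate 3, rt-PA+Acu replicate 2 or rt-PA+Acu replicate 3 (highest adjusted p = 0.0989).

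The same family signals through gp130 and STAT3. Of the 18 genes tested of LIF, oncostatin M and STAT3-SOCS signalling, 9 were called lower and 0 higher, with a median of -1.07. Calls fell to 4 without rt-PA replicate 1 or rt-PA+Acu replicate 2, to 5 without rt-PA+Acu replicate 1, and to 5 of 14 with at least 10 counts in every library. The ligand Lif stood at 65.9, 50.7 and 55.9 CPM in rt-PA and 0.674, 0.436 and 5 in rt-PA+Acu, a log2 fold change of -4.76 ± 0.68 (SE, adjusted p = 0.00317). Socs3, the feedback inhibitor that STAT3 induces, had 197, 122 and 147 CPM in rt-PA and 2.78, 5.41 and 28.4 in rt-PA+Acu. In both genes replicate 3 was several times above replicates 1 and 2 and still below all rt-PA libraries. Stat3 itself stood at 388, 389 and 405 CPM in rt-PA and 92.6, 140.2 and 258 in rt-PA+Acu, with a log2 fold change of -1.26. It was no longer called without rt-PA replicate 1, rt-PA replicate 3, rt-PA+Acu replicate 1 or rt-PA+Acu replicate 2 (highest adjusted p = 0.0848, smallest change -0.98). The shared receptor chain Il6st, at -0.95, and the kinase Jak1, at -0.63, did not pass the fold threshold, which Il6st did with library size alone, without rt-PA replicate 2 and without rt-PA+Acu replicate 3.

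Toll-like receptor, inflammasome and NF-kappaB genes had 13 of 30 members called lower and 0 higher, with a median of -0.98. Cd14, a co-receptor for bacterial lipopolysaccharide, went from 95.3, 119 and 98.98 to 0.927, 2.79 and 9.93 CPM, a log2 fold change of -4.49 ± 0.64 (SE, adjusted p = 0.00316). Nos2, the inducible nitric oxide synthase, had 19.6, 10.3 and 2.21 CPM in rt-PA and 0, 0.0873 and 0.149 in rt-PA+Acu, at least 43.4-fold lower, or 25.4-fold without rt-PA replicate 1. The adaptor Myd88 stood at 47.4, 34.35 and 43.8 and 6.995, 7.07 and 15.1 CPM. Ptgs2, the inducible cyclooxygenase and the most abundant member, had 552, 261 and 597 CPM in rt-PA and 58.1, 94.25 and 187 in rt-PA+Acu, and was not called without rt-PA+Acu replicate 2 (adjusted p = 0.0597).

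Selectins, leukocyte integrins and vascular adhesion molecules had 12 of 16 genes called lower and 2 higher, with a median of -1.76. Icam1, which binds leukocyte integrins, fell from 54.4, 40.5 and 58.2 to 3.12, 3.75 and 6.64 CPM, a log2 fold change of -3.49 ± 0.30 (SE, adjusted p = 0.00104). Vcam1 moved the other way, at 22.1, 30.3 and 21.98 CPM in rt-PA and 70.4, 57.1 and 43.4 in rt-PA+Acu, with 1.20 ± 0.21 (SE, adjusted p = 0.00595). Each rt-PA+Acu library lay above each rt-PA library for Vcam1 and below each for Icam1. Selplg, the selectin ligand carried by microglia and leukocytes, was also called higher, at 12.3, 10.1 and 7.97 and 35.8, 32.3 and 12.8 CPM, but not without rt-PA replicate 2, rt-PA replicate 3, rt-PA+Acu replicate 1 or rt-PA+Acu replicate 2 (highest adjusted p = 0.0793).

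The plasminogen system is the target of the drug that both groups received. Of its 17 activator, receptor and inhibitor genes tested, 8 were called lower and 1 higher, with a median of -1.39. That median was -2.15 without rt-PA+Acu replicate 3 and -0.95 without rt-PA+Acu replicate 1. Plau, the urokinase gene, had 36.8, 28.4 and 22.05 CPM in rt-PA and 1.52, 1.31 and 2.91 in rt-PA+Acu, a log2 fold change of -3.90 ± 0.34 (SE, adjusted p = 0.00104). The groups did not overlap, and replicate 3 was the highest of rt-PA+Acu. The urokinase receptor gene Plaur had 22.55, 23.35 and 14.75 and 1.35, 1.92 and 5.45 CPM. Serpini1, the neuronal inhibitor neuroserpin, was the member called higher, from 101, 200.5 and 161 to 496, 428 and 277 CPM, with 1.38 ± 0.29 (SE, adjusted p = 0.0109).

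Matrix proteases, their inhibitors and injury matrix genes had 24 of 37 members called lower and 1 higher, with a median of -1.65. Thbs1, a matricellular protein, stood at 100.4, 69.3 and 103 CPM in rt-PA and 1.43, 5.24 and 7.16 in rt-PA+Acu, and the protease Adamts9 at 91.65, 80.1 and 42.3 and 3.12, 3.23 and 6.79 CPM. Timp4, a protease inhibitor, was the call upward, from 2.498, 2.73 and 3.17 to 14.3, 7.94 and 7.16 CPM, beside 2 calls upward without rt-PA replicate 3 and 3 without rt-PA+Acu replicate 3. Perineuronal net genes split, with 3 called higher and 2 lower of 11. The link protein Hapln1 had 5.204, 4.599 and 6.71 CPM in rt-PA and 29.2, 31.85 and 20.8 in rt-PA+Acu, while the proteoglycan aggrecan (Acan) was called lower. Tight and adherens junction genes had a median of 0.21, with 2 called higher and 1 lower of 16. Over all genes 7.17% were called higher and 8.16% lower, so these few calls are no result about the list. Cldn10 rose from 2.29, 3.38 and 2.73 to 24.95, 18.8 and 10.2 CPM and F11r fell from 20.9, 14.3 and 14.5 to 8.93, 7.07 and 5.75 CPM, a change of -0.99 and no call without rt-PA replicate 1.

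Stress genes did not move as 1 block. Over all genes 7.17% were called higher and 8.16% lower, so list counts near these shares are no result. Hmox1, the enzyme that degrades haem, stood at 613, 248 and 470.4 CPM in rt-PA and 5.225, 6.46 and 25.1 in rt-PA+Acu, with a log2 fold change of -5.16 ± 0.68 (SE, adjusted p = 0.00245). The list of NRF2 antioxidant, haem and metal genes around it had 6 called lower and 1 higher of 27, with a median of -0.52. Lower calls there numbered 3 without rt-PA+Acu replicate 2 and 10 without rt-PA+Acu replicate 3, and the higher call was lost without rt-PA+Acu replicate 1. ATF4, CHOP and unfolded protein response genes had 5 lower and 2 higher of 34 (median -0.54), and Atf4 itself had 442, 373 and 399 CPM in rt-PA and 142, 144 and 180.4 in rt-PA+Acu. Lower calls in that list numbered 2 without rt-PA replicate 1, 3 without rt-PA replicate 2 or rt-PA+Acu replicate 2, and 9 without rt-PA+Acu replicate 3. Glycolysis, lactate transport and hypoxia genes had 7 lower and 2 higher of 40 and a median of -0.06. It lay at -0.11 without rt-PA replicate 1, 0.05 without rt-PA replicate 2 and -0.12 without rt-PA+Acu replicate 2, so it had no stable sign, and 1 member was called higher without rt-PA replicate 1 or rt-PA+Acu replicate 1. Within them the hypoxia factor Hif1a fell from 402, 294 and 309 to 120.5, 109 and 135 CPM and the glucose transporter Slc2a1 from 346, 303 and 332 to 140.2, 135 and 146 CPM. Heat shock proteins and co-chaperones had 2 lower and 1 higher of 30, no more than the 8.16% and 7.17% over all genes, and a median of 0.15. This median was 0.02 with the replicate block and 0.25 without rt-PA+Acu replicate 1 or 2. Without rt-PA+Acu replicate 3 it was -0.33, with 5 lower and 0 higher. There was 1 lower call without rt-PA replicate 1 or rt-PA+Acu replicate 2, and 2 higher without rt-PA replicate 3 or rt-PA+Acu replicate 2.

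Immediate early transcription factors and activity genes had 20 of 34 members called lower and 0 higher, with a median of -1.36. Atf3, a stress-induced factor, stood at 39.8, 43.6 and 22.9 CPM in rt-PA and 0.7585, 1.48 and 3.21 in rt-PA+Acu, with -4.25 ± 0.47 (SE, adjusted p = 0.00153). Jun had 405, 339.6 and 387 and 84.4, 82.8 and 163 CPM and Myc 53.15, 41.2 and 46.98 and 5.14, 5.24 and 10.3 CPM. In all of these the groups did not overlap. Neurotrophins and cortical neuropeptides had 14 lower and 2 higher of 26, with a median of -1.38. The median was -0.89 without rt-PA+Acu replicate 1, -0.53 over the 31 members tested with DESeq2 or with no filter, and -0.54 over 21 with at least 10 counts in every library. Higher calls numbered 0 without rt-PA replicate 1, without rt-PA+Acu replicate 2 or with library size alone, and 1 without rt-PA replicate 3 or rt-PA+Acu replicate 1. Vgf, a secreted neuropeptide precursor induced by activity and injury, fell from 876, 729.9 and 861 to 64.98, 93.1 and 123 CPM, a log2 fold change of -3.13 ± 0.24 (SE, adjusted p = 0.00104). Scg2, a granin of dense-core vesicles, had 669.7, 845 and 772 CPM in rt-PA and 145, 148 and 174 in rt-PA+Acu.

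Genes of p53, the BCL-2 family, caspases and necroptosis had 14 of 38 members called lower and 0 higher, with a median of -0.87, and 9 lower without rt-PA+Acu replicate 2. The cell cycle inhibitor Cdkn1a had 46, 58.2 and 73.8 CPM in rt-PA and 7.67, 10.4 and 16.6 in rt-PA+Acu, and the growth arrest gene Gadd45g 109.7, 93.98 and 121 and 5.56, 4.28 and 23.96 CPM. Cell cycle and proliferation genes had 8 lower and 0 higher of 35 (median -0.67), and interferon response and antigen presentation genes 10 lower and 1 higher of 33 (median -0.72). Both depended on single libraries. Cell cycle genes had 18 lower and a median of -1.16 without rt-PA+Acu replicate 3, 5 lower without rt-PA replicate 1 or with the replicate block, 4 without rt-PA replicate 2 or rt-PA+Acu replicate 1, and 3 without rt-PA+Acu replicate 2. Interferon genes had 6 calls and a median of -0.40 without rt-PA replicate 1, 7 calls without rt-PA replicate 3 and 6 without rt-PA+Acu replicate 2. Their higher call, Mx2, was lost with the replicate block and without rt-PA replicate 1, rt-PA replicate 3 or rt-PA+Acu replicate 3. Autophagy and lysosome genes had 2 lower and 0 higher of 38 (median -0.02), a share below the 8.16% over all genes. Cholesterol genes had 5 lower and 1 higher of 31 (median -0.21), the higher share below the 7.17% over all genes. The autophagy median was -0.04 without rt-PA+Acu replicate 1 and 0.04 without rt-PA replicate 2, and its lower calls numbered 1 without rt-PA replicate 1, rt-PA+Acu replicate 1 or 2, or with the replicate block, with 1 higher without rt-PA replicate 3. For cholesterol genes it was -0.06 without rt-PA replicate 2, with 2 lower, -0.36 without rt-PA replicate 3, with 2 higher, and -0.33 without rt-PA+Acu replicate 1. Lower calls there were 8 without rt-PA replicate 1 and 3 without rt-PA+Acu replicate 2 or 3. Cytosolic ribosomal protein genes had no member past the fold threshold among 47, but their median was -0.42 and 45 of them had a negative log2 fold change. Nuclear oxidative phosphorylation subunits had 0 calls among 44 and a median of 0.20, or 0.13 without rt-PA+Acu replicate 1.

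Rises were found among astrocyte, clock, receptor and channel genes. Among homeostatic astrocyte markers, 12 of 20 were called higher and 0 lower, with a median of 1.15. Kcnj10, the Kir4.1 channel that clears potassium, stood at 64.6, 90.2 and 111 CPM in rt-PA and 668, 474 and 308 in rt-PA+Acu, a log2 fold change of 2.44 ± 0.31 (SE, adjusted p = 0.00223). The gap junction gene Gjb6 had 4.65, 5.46 and 4.13 CPM in rt-PA and 77.9, 41.02 and 19.3 in rt-PA+Acu. In both genes replicate 3 was the lowest of its group and above all rt-PA libraries. Slc7a10, an amino acid transporter, rose from 1.87, 2.08 and 6.49 to 31.01, 28.3 and 20.3 CPM.

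**Figure D2:**
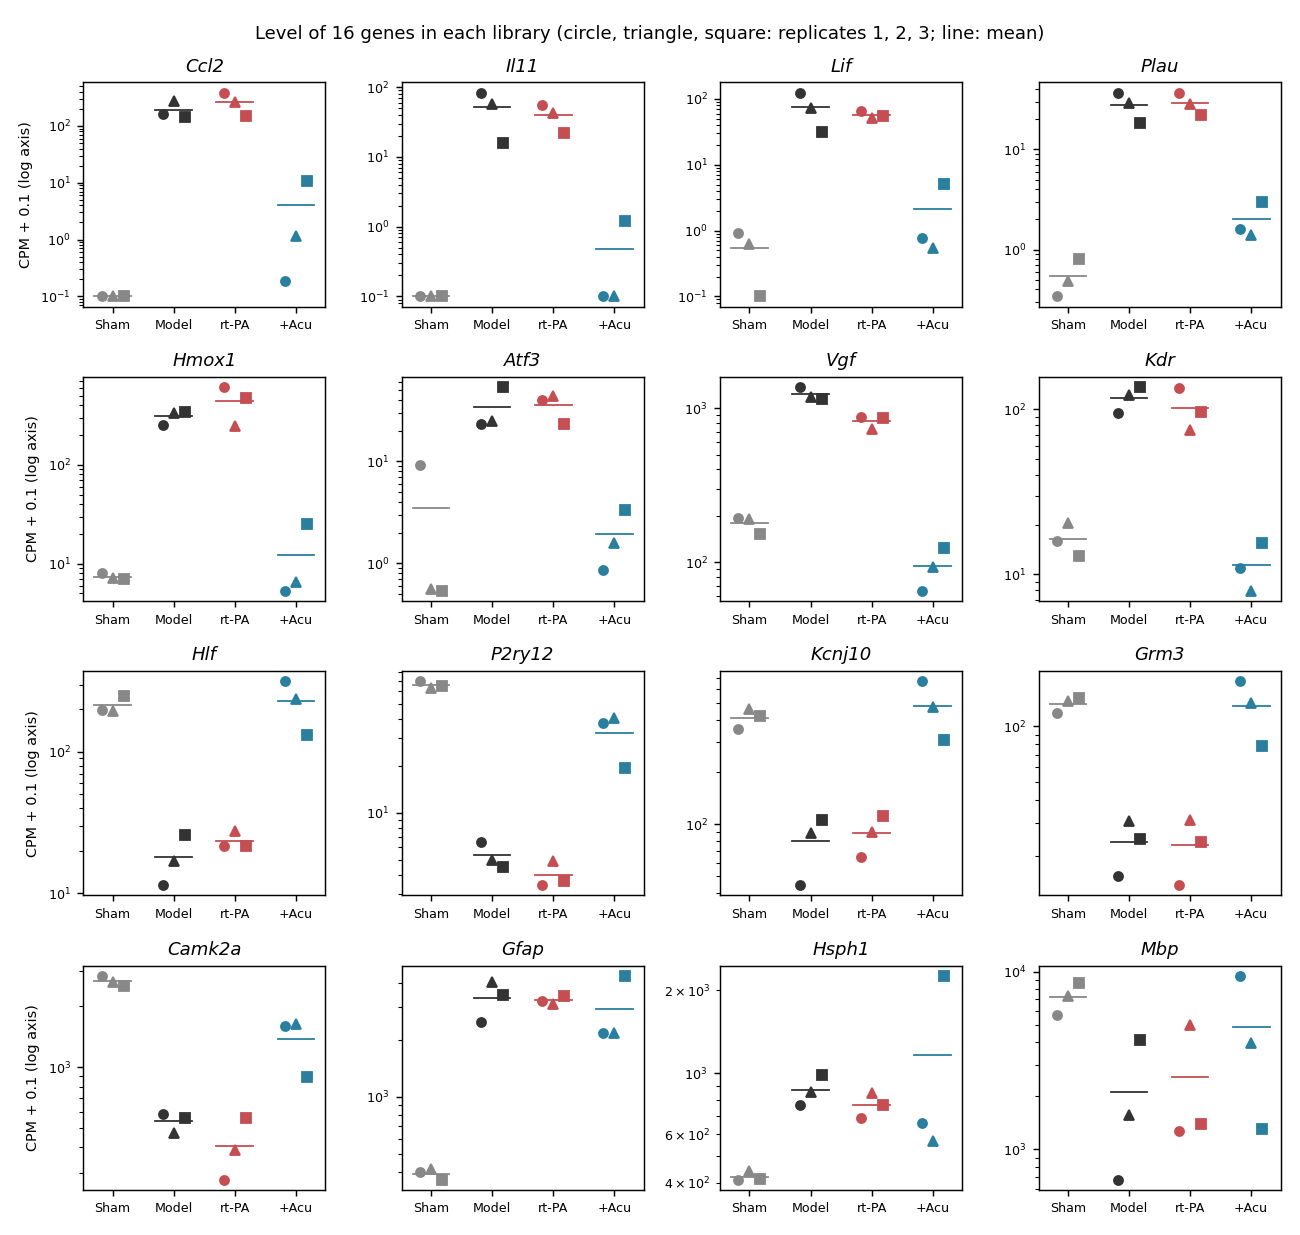
CPM plus 0.1 on a log axis for 16 genes in the 12 libraries, with replicates 1, 2 and 3 as circle, triangle and square and a line at the arithmetic mean of each group. For Ccl2, Il11, Lif and Plau the rt-PA+Acu libraries lie below the rt-PA libraries with replicate 3 highest, while for Gfap the groups overlap through replicate 3.

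Clock genes had 10 of 18 members called higher and 1 lower, with a median of 1.04. The output factors Hlf and Dbp of the PAR bZIP family had the largest rises of the list. Hlf stood at 21.4, 27.4 and 21.5 CPM in rt-PA and 316, 236 and 132 in rt-PA+Acu, with 3.28 ± 0.31 (SE, adjusted p = 0.00118), and Dbp at 10.1, 18.75 and 14.9 and 144, 98.7 and 75.2 CPM. Per3, a period gene of the core loop, had 20.4, 17.7 and 19.99 and 67.5, 64.3 and 50.75 CPM, while Nfil3, a repressor that competes with the PAR bZIP factors, fell from 32.7, 39.7 and 30.8 to 10.6, 6.81 and 15.97 CPM. The hour of collection per animal is not given in the sources used here. Glucocorticoid receptor targets split, with 5 higher and 4 lower of 21 (median 0.30, 0.53 without rt-PA replicate 2 and 0.15 without rt-PA+Acu replicate 1), and Klf15 rose from 2.36, 4.17 and 3.98 to 19.1, 15.8 and 11.5 CPM.

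Glutamate and GABA receptor subunits had 14 of 35 members called higher and 0 lower, with a median of 0.87. The metabotropic receptor Grm3 stood at 13.7, 31.1 and 23.6 CPM in rt-PA and 174, 133 and 77.5 in rt-PA+Acu, with 2.49 ± 0.37 (SE, adjusted p = 0.00362). Gria2, an AMPA receptor subunit, had 441, 375 and 388 and 1099, 1235 and 806 CPM. Potassium channel genes had 19 higher and 2 lower of 48 (median 0.80), and sodium, calcium, HCN and TRP channel genes 9 and 1 of 38 (median 0.61). The lower calls of both lists were below the 8.16% over all genes. Trpv4, a calcium channel opened by swelling, was the call downward in the latter list, from 6.38, 5.68 and 5.09 to 0.0843, 0.262 and 0.149 CPM, at least 23.2-fold. That list had 2 lower without rt-PA+Acu replicate 3 or with DESeq2. Synaptic vesicle release genes had 3 higher and 0 lower of 40 (median 0.55), a share near the 7.17% called higher over all genes, and postsynaptic genes 8 and 1 of 35 (median 0.59). Potassium channel genes had 13 higher and 0 lower without rt-PA replicate 1, 0 lower without rt-PA+Acu replicate 2, and 1 lower without rt-PA replicate 2 or rt-PA+Acu replicate 1 or with the replicate block. Vesicle genes had 1 higher without rt-PA replicate 1 or rt-PA+Acu replicate 2, 6 without rt-PA replicate 2 or rt-PA+Acu replicate 3, and 5 with DESeq2 or 1 fit of 12 libraries. Camk2a, the kinase of synaptic plasticity, stood at 276, 387 and 558 CPM in rt-PA and 1591, 1630.0 and 894 in rt-PA+Acu, with 1.75 ± 0.31 (SE, adjusted p = 0.0065).

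**Figure D3:**
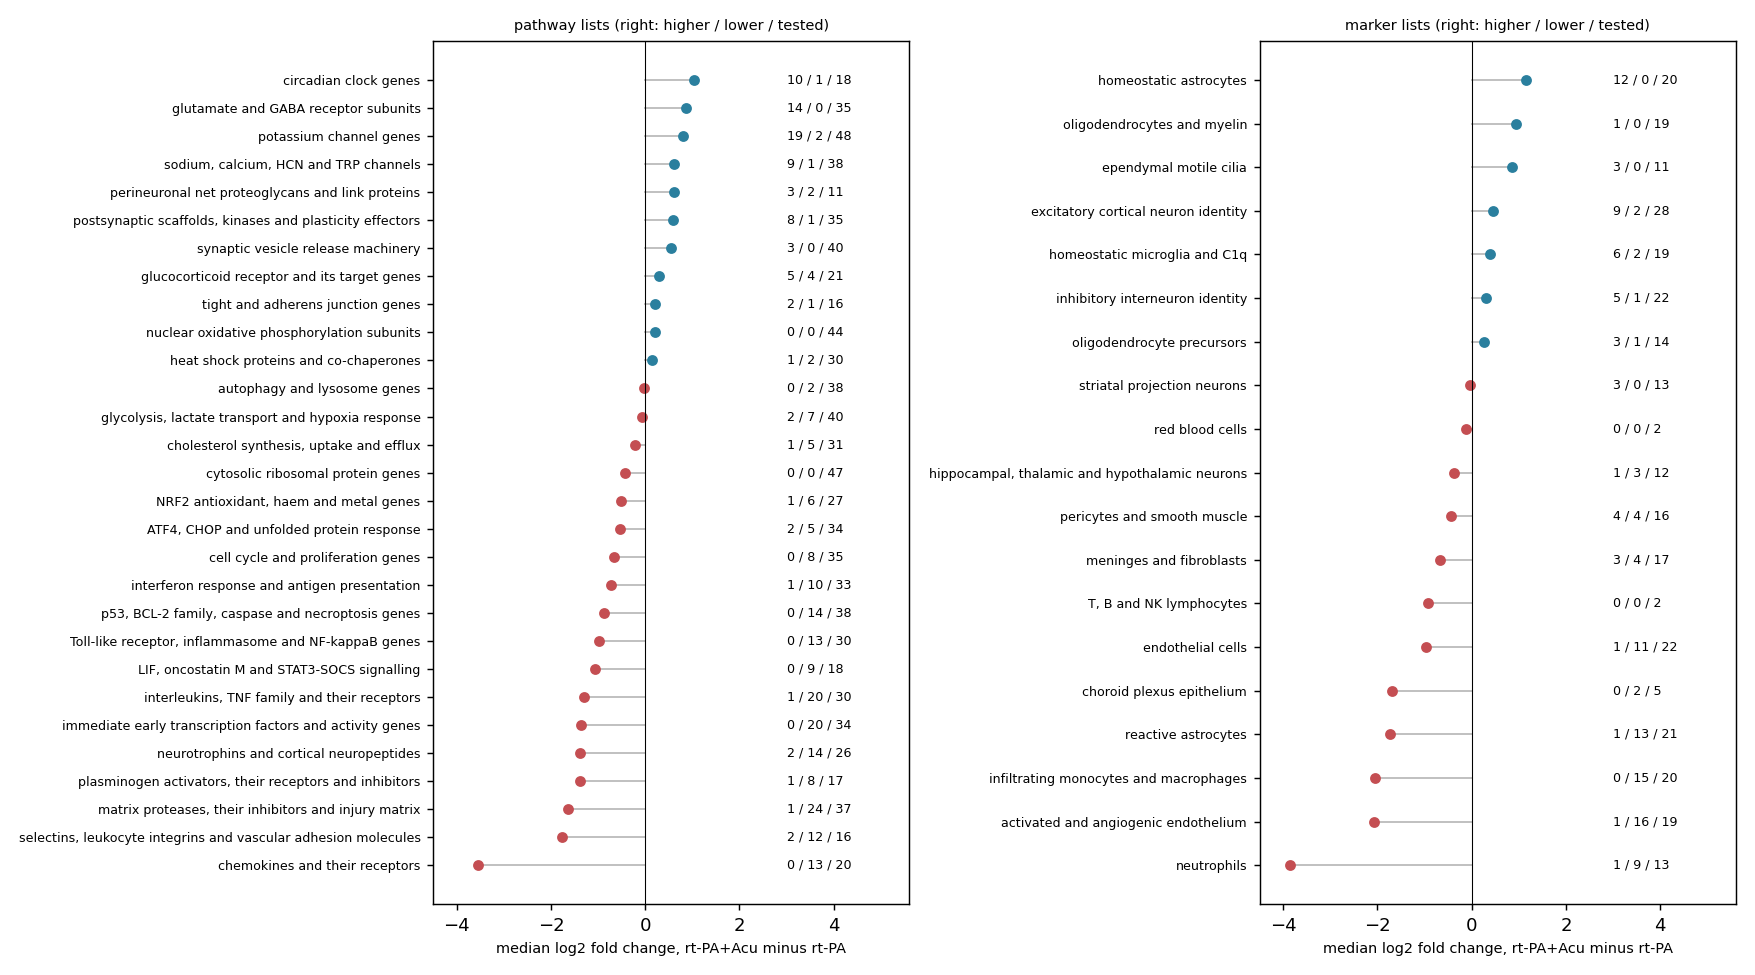
Median log2 fold change between rt-PA+Acu and rt-PA for each pathway list (left) and cell type marker list (right), with the numbers of members called higher, called lower and tested beside each. Chemokines and neutrophil markers lie lowest with the filter used here, though at 0.21 and -1.36 with at least 10 counts in every library, and clock genes and homeostatic astrocyte markers lie at 1.04 and 1.15.

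The called genes with the largest changes at 5 CPM or more and groups apart came from varied families. Btbd17, Gli1, Slc22a3, Nat8f3, Kcng4, Itga11, Dclk3 and Ackr2 rose by between 3.11 and 5.53 on the log2 scale. Nat8f3 has close relatives in the genome, so its count may be shared with them. Among the falls, the transcription factor gene Pax1 stood at 41.1, 20.4 and 65.9 CPM in rt-PA and 0, 0 and 0.448 in rt-PA+Acu, with no count in any Sham library. Krt17, Barhl2, Slpi, Scimp and Esm1 were each at or under 3 counts in every rt-PA+Acu library. In rt-PA, Barhl2 stood at 7.98, 1.15 and 8.11 CPM and Scimp at 10.5, 5.39 and 3.69 CPM, so they were at least 23.3- and 26.5-fold lower after rt-PA+Acu. Krt17 had 16.9, 2.299 and 10.2 CPM in rt-PA, Slpi 24.98, 5.39 and 9.29 and Esm1 9.92, 0.790 and 5.61, which put them at least 39.8-, 53.7- and 22.1-fold lower in rt-PA+Acu. Those 3 limits rested in part on rt-PA replicate 1, and without it were 25.3-, 29.8- and 12.99-fold. Esm1 is on the activated endothelium list, and so is Selp, the endothelial P-selectin gene, which had 18.1, 11.7 and 3.835 CPM in rt-PA and 0, 0.1745 and 0.373 in rt-PA+Acu.

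Neutrophil, monocyte and macrophage markers moved with the falling lists. Neutrophil markers had 9 called lower and 1 higher of 13 tested among 24 in the table, with a median of -3.86, or -3.29 with Mmp8 at its bound. With at least 10 counts in every library 5 were tested, 2 called lower, and the median was -1.36. The higher call, Prtn3, was lost without rt-PA replicate 1 or rt-PA+Acu replicate 2 and was absent under that filter. Their summed level was 276, 181 and 186 CPM in rt-PA and 37, 56.55 and 81.6 in rt-PA+Acu, with Mmp9 the most abundant gene. Ltf, Mpo, Elane and Np4 had no count in any of the 6 libraries. S100a9, a calcium-binding protein of neutrophils, had 35.7, 16.6 and 4.204 and 0.927, 0.349 and 0.149 CPM. Monocyte and macrophage markers had 15 lower and 0 higher of 20 (median -2.06), summed to 1634, 1033 and 996 CPM in rt-PA and 302, 344 and 404 in rt-PA+Acu, with Fn1 the most abundant. The monocyte receptor Ccr2 had 15.3, 4.31 and 3.91 and 0, 0.1745 and 0.522 CPM. In bulk tissue, fewer cells of a type and less RNA per cell cannot be told apart, and the part of these cells in the fall of chemokine, adhesion and protease genes was not tested. Lymphocyte markers had 2 genes tested and 0 called, red blood cell markers 2 and 0. Without rt-PA+Acu replicate 3, 1 lymphocyte marker was called lower, and with DESeq2 or no filter 1 of 6 red blood cell markers was called higher.

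Resident glia split by programme. Homeostatic microglial markers had 6 called higher and 2 lower of 19 (median 0.39), with a summed level of 941, 978 and 944 CPM in rt-PA and 991, 1092 and 916 in rt-PA+Acu. The purinergic receptor P2ry12 rose from 3.33, 4.81 and 3.54 to 37.8, 40.2 and 19.4 CPM and P2ry13 from 0.416, 0.790 and 0.4425 to 12.4, 13.8 and 5.75 CPM, while the integrin Itgam fell from 102, 126 and 90.1 to 27.6, 40.75 and 62.8 CPM, with no call without rt-PA+Acu replicate 2 (adjusted p = 0.055). Higher microglial calls numbered 3 without any 1 of the rt-PA libraries or without rt-PA+Acu replicate 2, and lower calls 1 without the last. Reactive astrocyte markers had 13 lower and 1 higher of 21 (median -1.74). Their most abundant gene, Gfap, was not called, at 3215, 3121 and 3426 CPM in rt-PA and 2189, 2184 and 4378 in rt-PA+Acu, with -0.15 ± 0.28 (SE, adjusted p = 0.694). The overlap of the groups rested on rt-PA+Acu replicate 3, the highest of the 6, while replicates 1 and 2 were the lowest. Without replicate 3 the Gfap change was -0.57 (adjusted p = 0.0111), in the direction of the list and under the fold threshold, and without replicate 1 or 2 of that group it was 0.020 or 0.021. All 6 Gfap levels lay above the Sham values of 396, 414 and 363 CPM.

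Endothelial markers had 11 called lower and 1 higher of 22 (median -0.97), and activated endothelium markers 16 and 1 of 19 (median -2.07). Kdr, the main VEGF receptor, fell from 135, 74.4 and 96.1 to 10.8, 7.85 and 15.4 CPM, with -3.16 ± 0.31 (SE, adjusted p = 0.00118), and Pecam1 from 84.9, 64.9 and 76.3 to 18.5, 20.7 and 21.1 CPM. Itm2a was the endothelial marker called higher, at 24.8, 19.9 and 21.2 and 59.9, 69.1 and 44.03 CPM. Endothelial markers had 7 lower without rt-PA replicate 1, and 2 higher without rt-PA replicate 3 or rt-PA+Acu replicate 3, with DESeq2 or with 1 fit of 12 libraries. Pericyte and smooth muscle markers split, 4 higher and 4 lower of 16 (median -0.44), with Vtn rising from 3.955, 2.44 and 3.39 to 17.3, 10.8 and 10.45 CPM and Acta2 falling from 31.98, 13.9 and 18.6 to 6.32, 5.06 and 7.76 CPM. Meningeal and fibroblast markers had 3 higher and 4 lower of 17 (median -0.67). Without rt-PA replicate 1 the mural median was -0.28 and the fibroblast median -0.25, with 2 fibroblast markers lower. Without rt-PA replicate 2 the fibroblast list had 7 lower and a median of -1.03. Without rt-PA+Acu replicate 1 it had 2 lower and a median of -1.01, and the mural list 2 higher and 2 lower. Mural markers also had 2 lower without rt-PA+Acu replicate 2.

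Excitatory neuron markers had 9 called higher and 2 lower of 28 (median 0.46, or 0.87 without rt-PA replicate 2, with 1 lower without rt-PA replicate 1), and their summed level was 1609, 2138 and 1939 CPM in rt-PA and 3522, 4026 and 2373 in rt-PA+Acu. Neurod6 rose from 8.67, 18.2 and 13.8 to 97, 123 and 45.97 CPM. Interneuron markers had 5 higher and 1 lower of 22 (median 0.30), with the neuropeptide Npy falling from 165, 113 and 138 to 21.7, 31.7 and 37.5 CPM. Higher interneuron calls numbered 2 without rt-PA replicate 1 or 2 or rt-PA+Acu replicate 2 or 3, and 3 without rt-PA replicate 3 or with library size alone. Their median was 0.19 without rt-PA replicate 2 or rt-PA+Acu replicate 3 and 0.55 without rt-PA+Acu replicate 1. Oligodendrocyte precursor markers had 3 and 1 of 14 (median 0.27), striatal markers 3 and 0 of 13 (median -0.04), markers of other regions 1 and 3 of 12 (median -0.38), choroid plexus markers 0 and 2 of 5 (median -1.68) and ependymal cilia markers 3 and 0 of 11 (median 0.85), each given as higher and lower. These 5 small lists also moved with single libraries. Over all genes 7.17% were called higher and 8.16% lower, so neuron and small-list counts near these shares are no result about a list. The precursor median was 0.41 without rt-PA replicate 2, 0.08 without rt-PA+Acu replicate 1 and 0.49 without rt-PA+Acu replicate 3, with 5 higher in the last and 0 lower without rt-PA replicate 1. The striatal list had 1 call without any 1 library other than rt-PA+Acu replicate 3, and its median was -0.21 without rt-PA+Acu replicate 1 and 0.27 without rt-PA replicate 2. Markers of other regions had 0 higher with the replicate block, with library size alone and without any 1 library other than rt-PA+Acu replicate 1. Their median was -0.24 with the block, -0.64 without that library and -0.22 without rt-PA+Acu replicate 3. Choroid markers had 1 lower without rt-PA replicate 1 or 3 or rt-PA+Acu replicate 2 or 3, and over the 12 tested with DESeq2 or no filter their median was -0.04 or -0.03. Ependymal markers had 1 lower without rt-PA replicate 1, with library size alone, with DESeq2 or with 1 fit of 12 libraries. Otx2 of the choroid list and Tmem212 and Mcidas of the ependymal list had no count in the 6 libraries.

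Myelin genes varied widely within both groups. The summed level of the oligodendrocyte list was 2956, 12770.0 and 3863 CPM in rt-PA and 23510.0, 9832 and 3681 in rt-PA+Acu, and its median log2 fold change of 0.95 came with 1 call among 19. The median was 0.58 without rt-PA replicate 1, 1.84 without rt-PA replicate 2 and 0.22 without rt-PA+Acu replicate 1. There were 0 calls with the replicate block, with library size alone and without rt-PA replicate 1 or 3 or rt-PA+Acu replicate 1 or 2, 2 with DESeq2 or 1 fit of 12 libraries, 3 without rt-PA replicate 2 and 4 without rt-PA+Acu replicate 3. Mbp had 1262, 4998 and 1383 CPM in rt-PA and 9468, 3961 and 1296 in rt-PA+Acu. rt-PA replicate 2 and rt-PA+Acu replicates 1 and 2 were high and the other 3 libraries low, so the groups overlapped. The part of this variation in other genes was not tested.

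Within rt-PA+Acu, replicate 3 was more often the odd library than replicate 1 or 2. The common biological coefficient of variation was 0.214 in rt-PA+Acu and 0.190 in rt-PA, beside 0.124 in Sham and 0.195 in Model. Of the 12999 genes tested, replicate 3 was the library farther from the middle of its group at 6131, against 3606 for replicate 1 and 3262 for replicate 2. At 526 genes it stood apart from the nearer of the other 2 by more than 2-fold, and at 480 of these it was displaced towards rt-PA. Both directions were taken from the mean of replicates 1 and 2, which by itself favours agreement. No such count was made for the other libraries. Model replicate 3 came near to this in its own group, as the farther library at 5750 genes and by more than 2-fold at 426.

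To measure the displacement with genes that the library did not help to choose, each library was left out of its own call. Over the 2510 genes called without rt-PA+Acu replicate 3, it lay 33.1% of the way from replicates 1 and 2 to the rt-PA libraries. It was on the rt-PA side of its group at 87.5% of these genes and past the midpoint at 669. The same position gave -6.06% for rt-PA+Acu replicate 1 and -6.67% for replicate 2, and -9.93%, 17.7% and 13.1% for rt-PA replicates 1, 2 and 3. For rt-PA+Acu replicates 1 and 2 the reference and the call included replicate 3, so their values are not independent of its displacement. rt-PA replicates 2 and 3 were on the rt-PA+Acu side at 73.3% and 70.9% of their genes, and past the midpoint at 262 and 123. For rt-PA replicate 1 and rt-PA+Acu replicates 1 and 2 the share towards the other group was 32.9%, 40.1% and 36.9%. rt-PA+Acu replicate 3 therefore lay further towards the other group than any of the other 5 libraries, while remaining nearer to its own.

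The displacement is given here for single lists, and differences between lists were not tested. Replicate 3 lay 25.8% of the way to rt-PA over the chemokine list, 13.8% over neutrophil markers and 1.08% over endothelial markers, but 51.1% over the STAT3 list, 55.7% over reactive astrocyte markers, 62.3% over the ATF4 and unfolded protein list, 71.9% over cell cycle genes, 73.7% over excitatory neuron markers and 89.9% over oxidative phosphorylation subunits. The oxidative phosphorylation value rests on small distances from replicates 1 and 2, -0.26 in replicate 3 and -0.29 in rt-PA. Some lists went past rt-PA. The oligodendrocyte list was -1.81 from replicates 1 and 2 in replicate 3 and -1.52 in rt-PA, in mean log2 CPM. Perineuronal net genes were at -0.41 and -0.28, and glucocorticoid targets at -0.34 and -0.32. The lymphocyte and red blood cell lists, of 2 genes each, also lay past rt-PA. In the interneuron, fibroblast, autophagy, ependymal, cholesterol and hypoxia lists replicate 3 was displaced away from rt-PA. Heat shock genes, by contrast, went past rt-PA. Their mean log2 CPM was 0.68 above replicates 1 and 2 in replicate 3, and 0.37 above them in rt-PA. Hsph1, a co-chaperone of the HSP70 system, stood at 685, 848 and 766 CPM in rt-PA and 659, 568 and 2257 in rt-PA+Acu, and Hsp90aa1 at 2559, 2595 and 2563 and 2381, 2174 and 4056 CPM. For both, replicate 3 was the highest of the 12 libraries, whose Sham and Model levels of Hsph1 were 411, 441 and 412 and 767, 854 and 985 CPM. Without replicate 3 the log2 fold change of Hsph1 was -0.31 in place of 0.61, and neither was called.

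**Figure D4:**
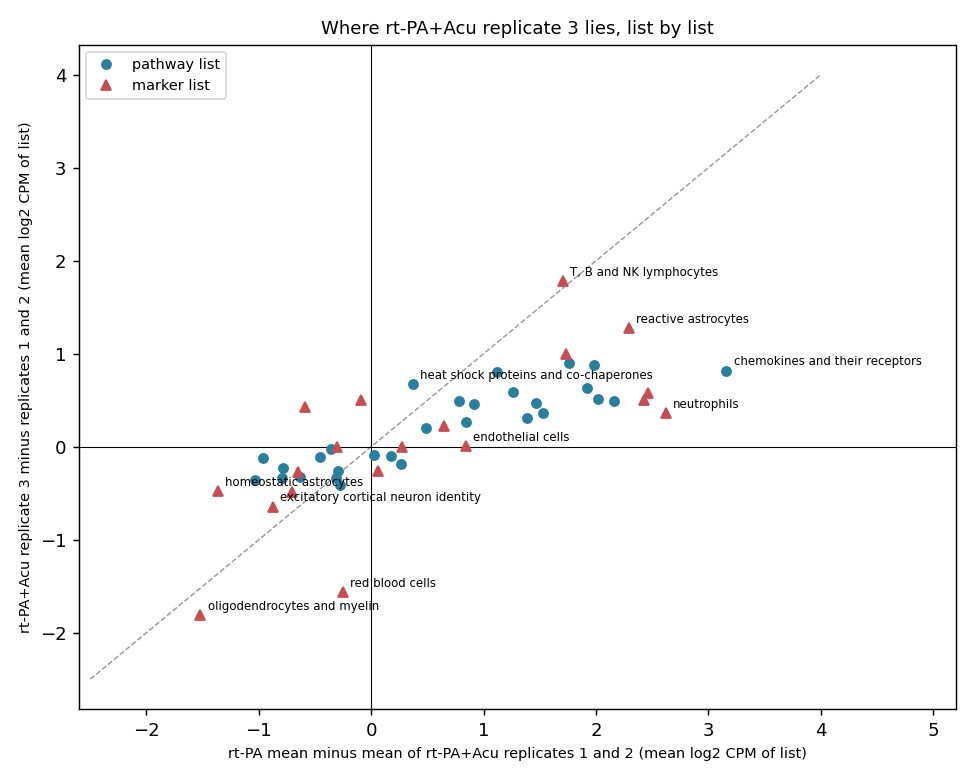
For each list, the mean log2 CPM of rt-PA+Acu replicate 3 minus that of replicates 1 and 2 (vertical axis) against the same difference for the rt-PA mean (horizontal axis); on the dashed line replicate 3 equals rt-PA. Lists more than 1 higher in rt-PA lie below the line, except the lymphocyte list of 2 genes, and heat shock genes lie above it. The oligodendrocyte list lies past rt-PA on the negative side.

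Some genes set replicate 3 apart from all other libraries of the comparison. Whether the tissue pieces taken differed between libraries was not tested. Replicate 3 lay more than 2-fold above the other 5 libraries at 35 genes and more than 2-fold below them at 28. Below them, the log2 difference from the nearest library was largest for RT1-N2 (-3.01), RT1-S2 (-2.79) and Ucma (-1.99). Cdhr1, a photoreceptor and olfactory cadherin, had 2.01, 21.05 and 9.29 CPM in rt-PA and 9.44, 9.425 and 119 in rt-PA+Acu, and the interneuron marker Calb2 had 2.36, 4.96 and 4.13 and 5.815, 8.12 and 33.96 CPM. The potassium channel subunit Kcne2, on the choroid plexus list, had 2.29, 1.44 and 2.36 and 2.275, 1.745 and 15.7 CPM. Without replicate 3 the log2 fold change of Calb2 was 0.87 in place of 2.08 and it was no longer called, nor was it in 6 other alternatives. Shisa3 and Vpreb3 showed the same single high library, at 1.18, 1.31 and 18.5 and 0.590, 0.436 and 8.51 CPM in rt-PA+Acu. Trh, the thyrotropin-releasing hormone gene, had 89.3, 66.4 and 57.7 CPM in rt-PA and 0.7585, 11.9 and 92.1 in rt-PA+Acu, so that replicate 3 lay above all rt-PA libraries and replicates 1 and 2 below them. Glra1, a glycine receptor subunit, had 10.96, 15.5 and 9.88 and 1.096, 1.13 and 10.8 CPM and FAM187A 28.65, 12 and 61.5 and 4.55, 3.403 and 30.3 CPM, with replicate 3 within the rt-PA range. Without it all 3 were called lower, at -3.49, -3.42 and -3.09 on the log2 scale. Spp1, Msr1 and Ccl7 stayed below rt-PA in all libraries, with Spp1 at 947, 1174 and 526 CPM in rt-PA and 12.4, 16.8 and 174 in rt-PA+Acu. Spp1 was not called without rt-PA replicate 1 or 2 or rt-PA+Acu replicate 1 or 2 (highest adjusted p = 0.0707), nor was Msr1 without any 1 of the libraries other than rt-PA+Acu replicate 3 (highest adjusted p = 0.0996). RT1-CE16, a class I gene with near-identical copies and so of uncertain count, had 1.04, 1.22 and 42.9 CPM in rt-PA and 2.275, 0.524 and 65.5 in rt-PA+Acu, high in replicate 3 of both groups.

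The rt-PA+Acu vs rt-PA difference was last set against that between Model and Sham, which shares no library with it. A mirror contrast, the sum of the log2 changes, tests where the first differs from the exact opposite of the second. Of 13298 genes tested, 8 were called higher (0.0602%) and 10 lower (0.0752%), while 2118 passed an unadjusted p under 0.05. This count depended on single libraries and on the tool. It was 295 without Model replicate 3, 0 without Sham replicate 2 (1578 at an unadjusted p under 0.05 in edgeR), and 281 with DESeq2. It was also 6 without Sham replicate 3, 2 without Model replicate 1, 4 without Model replicate 2, 6 without rt-PA replicate 1 and 37 without rt-PA+Acu replicate 1. A gene that misses the threshold here is not shown to have changed by the exact opposite.

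The 8 genes called higher in the mirror contrast were higher in Model than in Sham, with no fall of the same size between rt-PA and rt-PA+Acu. Gfap had a mirror value of 2.94 ± 0.36 (SE, adjusted p = 0.0193), and the small heat shock gene Hspb1 one of 4.58 ± 0.72 (SE, adjusted p = 0.035). Hspb1 stood at 4.35, 7.57 and 7.595 CPM in Sham, 279.9, 282 and 321 in Model, 230.3, 263 and 244 in rt-PA and 63.5, 53.9 and 271 in rt-PA+Acu, with replicate 3 above all rt-PA libraries. Without that replicate Hspb1 was called lower between rt-PA and rt-PA+Acu, at -2.06. H19, an imprinted noncoding RNA, stood at 0, 0.229 and 0.175 CPM in Sham, 60.7, 83.05 and 69.3 in Model, 41, 79.5 and 58.6 in rt-PA and 2.95, 8.29 and 17.9 in rt-PA+Acu. It had 3 or fewer counts in each Sham library, so its fitted mirror value is no bound and is not given. The protease Mmp9 had 2.11. Plekhh2, Cdo1, Sergef and Dhps had between 1.07 and 1.74. Among the genes called lower, Ccn2, a matricellular growth factor, had -3.06 ± 0.36 (SE, adjusted p = 0.0193). It stood at 76.4, 52.9 and 50.7 CPM in Sham, 10.99, 18.03 and 19.2 in Model, 66.3, 39.2 and 55.9 in rt-PA and 26.5, 26.4 and 19.3 in rt-PA+Acu, so it was lower in both comparisons, although between rt-PA and rt-PA+Acu it was -0.98 and not called without rt-PA replicate 1. Myl9, Adgrl4, Mfge8, Shc3, Amotl2 and Cbfa2t3 had between -2.59 and -1.23.

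**Figure D5:**
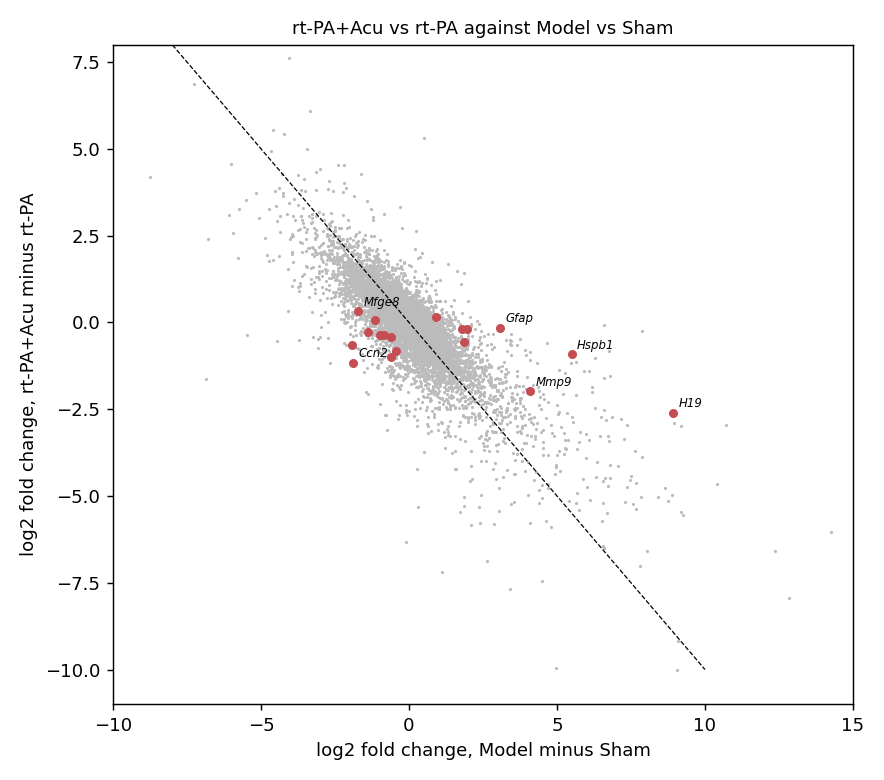
Log2 fold change between rt-PA+Acu and rt-PA (vertical axis) against that between Model and Sham (horizontal axis), both from the fit of 12 libraries, with the line of exact opposites dashed. Red points are the 18 genes called in the mirror contrast, among them Gfap and Hspb1 on the right and Ccn2 on the left; H19 is placed by its fitted value, which is no bound.

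Promoters are shown for 2 genes called lower and 1 called higher that hold the AP-1 motif, which is bound by Jun and its partners. RefSeq promoters of 300 bases around the start, build GRCr8, were matched by symbol for 10524 of the 12999 genes tested, and 5 motifs were searched on both strands. The AP-1 motif TGACTCA was in 7.29% of 809 promoters of genes called lower, 3.66% of 738 of genes called higher, 3.48% of those of all genes tested and 4.63% of all 33469 promoters in the table. In the same order, the NF-kappaB motif was in 2.72%, 1.9%, 1.65% and 1.53%, the CRE motif in 3.09%, 1.36%, 3.12% and 1.83%, the STAT motif in 1.73%, 1.36%, 1.19% and 1.27%, and the heat shock element in 0.618%, 0.271%, 0.485% and 0.798%. Matches of different motifs overlapped in 2 promoters of tested genes. Il11 (chr1:78098372-78098671, plus strand), Plaur (chr1:89181113-89181412, plus strand) and Il16 (chr1:147116693-147116992, minus strand) each held 1 AP-1 match, in capitals and on the opposite strand in Il11, which describes letters and not a site of binding. Of the other genes named, F11r, called lower, and Dhps, not called, held the motif too.
Il11: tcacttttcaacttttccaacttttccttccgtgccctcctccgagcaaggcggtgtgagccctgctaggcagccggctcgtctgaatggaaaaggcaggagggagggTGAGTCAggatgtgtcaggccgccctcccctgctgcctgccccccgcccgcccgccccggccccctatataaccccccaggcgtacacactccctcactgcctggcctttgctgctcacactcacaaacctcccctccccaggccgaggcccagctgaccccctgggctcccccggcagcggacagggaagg
Plaur: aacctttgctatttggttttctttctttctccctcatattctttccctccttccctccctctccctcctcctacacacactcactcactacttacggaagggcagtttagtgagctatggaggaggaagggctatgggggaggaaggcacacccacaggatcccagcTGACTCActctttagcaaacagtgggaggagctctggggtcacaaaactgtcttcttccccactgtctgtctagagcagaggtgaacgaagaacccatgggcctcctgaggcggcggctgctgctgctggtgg
Il16: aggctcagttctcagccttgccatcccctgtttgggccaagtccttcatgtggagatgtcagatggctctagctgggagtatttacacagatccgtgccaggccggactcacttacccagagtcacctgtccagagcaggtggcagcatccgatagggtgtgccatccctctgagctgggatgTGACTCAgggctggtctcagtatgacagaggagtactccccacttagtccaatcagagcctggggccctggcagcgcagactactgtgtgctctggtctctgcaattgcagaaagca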

How the data were processed

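Cortex RNA of 12 rats in 4 groups of 3 was sequenced as stranded poly(A) libraries, and 6 libraries were compared here. The authors deposited whole-number counts per gene symbol, without normalization. Per the study's methods, reads were aligned with STAR and read pairs counted with Salmon 1.9.0; submitters' processing notes give STAR 2.7.10a and also name featureCounts 2.0.1. Use of the molecular identifiers in counting is not given in the sources used here, and limits from counts therefore cover only counting error. Groups came from deposited labels. In R 4.3.3, edgeR 4.0.16 (limma 3.58.1) filtered genes with filterByExpr, scaled by TMM and ran its quasi-likelihood test, adjusted by Benjamini-Hochberg across every gene tested; all adjusted p values in the text are from it. Each SE was derived from that test, as the absolute log2 fold change divided by the square root of its F statistic. It is not a standard error taken from the fitted coefficient. CPM and log2 CPM (prior count 2) used TMM over 12 libraries. Genes with 3 or fewer counts in each library of a group have a fold against 3 counts per library. The position of a library was its mean distance over genes divided by the mean distance between groups. Named genes were the 12 called genes with the largest rise and fall at 5 CPM or more with groups apart, the called, abundant or defining members of each list, 12 genes with the largest difference of rt-PA+Acu replicate 3 from replicates 1 and 2, and 8 genes each way of the mirror contrast. Cxcl14, Mx2, Prtn3, RT1-N2, RT1-S2 and Ucma were named after their values were seen. Some genes that this rule names are not reported here. Members and lists were chosen with earlier results of these data known. DESeq2 1.42.0, other scalings, filters, a replicate block and leaving out each library were alternatives. Fits were tested on simulated data. Promoters are from RefSeq, build GRCr8. Plots used Python 3.11.15 and matplotlib 3.10.9.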

Additional observations from a re-analysis of the deposited data

How the results depend on the processing

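The count of 1993 called genes was 1657 to 2206 with DESeq2, other scalings, other filters or 1 fit of 12 libraries, and 1445 to 2510 when each library was left out, with 711 to 1150 higher and 734 to 1360 lower. Without a fold threshold 4522 genes passed, 2216 higher and 2306 lower. No called gene changed sign to a call in the opposite direction in these fits. With library size alone in place of TMM, 38.7% of calls were higher and the median of all genes was -0.0997. Whether replicate numbers pair the samples was not tested. Deviations of same-numbered libraries correlated at -0.110, 0.139 and -0.0227 across genes, and those of differently numbered libraries at between -0.207 and 0.240. The replicate block gave 1862 calls, 864 higher and 998 lower, and 15 in the mirror contrast. The mirror contrast had 281 calls with DESeq2, 92 higher and 189 lower, and 16 lower calls with at least 10 counts in every library. Leaving out each library gave 0 to 295, with 0 to 86 higher and 0 to 209 lower; the cause was not tested. The position of rt-PA+Acu replicate 3 was 33.2% to 33.8% under its alternatives. Some log2 fold changes changed sign without rt-PA+Acu replicate 3, the lowest value in each range over left-out libraries: RT1-CE16 -3.41 to 4.34, Shisa3 -0.88 to 2.94, Vpreb3 -1.14 to 2.00, Cdhr1 -0.19 to 3.04, Hsph1 -0.31 to 0.94, Hsp90aa1 -0.17 to 0.33 and Kcne2 -0.0054 to 2.16. Gfap was 0.020 without replicate 1 and 0.021 without replicate 2 of that group, and -0.57 without replicate 3. At this depth 3 counts, the level taken as the floor, stand for 0.208 to 0.262 CPM in the 12 libraries. The smallest detectable change depends on the level and spread of each gene and was not estimated.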
